A study of Mus musculus with 1152 samples.

Results

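The MHC class II genes and their activator were examined here in lymphatic endothelial cells (LECs) of the aged mouse nose and throat. The set was fixed by name as 7 rows of the expression table: H2-Aa, H2-Ab1, H2-Eb1, Cd74, H2-DMa, H2-DMb1 and Ciita, of 23168 genes in all. Every member was in the table, and each had reads in at least 8 cells. LECs line the lymphatic vessels that drain fluid from tissue, and the nasopharyngeal lymphatic plexus studied here is a route by which cerebrospinal fluid leaves the head. The cells came from the pooled nasopharyngeal mucosa of aged C57BL/6 mice (C57BL/6J in the methods), had been sorted as CD31+ PDPN+ with a dead-cell dye and an EpCAM stain, and were sequenced singly by Smart-seq3, a full-length RNA-seq method for single cells. The methods state that mice of both sexes were used, but 92.2% of the cells had reads of Xist and of no Y-linked gene, and 0 cells had a Y-linked gene without Xist. No treatment or second group was analysed here. No label named an animal or a plate, so the group was 1 pooled sample, and no p-value was taken across cells.

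MHC class II molecules present peptides to CD4+ T cells. An alpha and a beta chain pair in the endoplasmic reticulum around the invariant chain, Cd74, which blocks the groove and guides the complex to endosomes. There the H2-DM dimer exchanges the last fragment of Cd74 for a peptide. Ciita is the co-activator without which the class II promoters are silent in most cells, and interferon gamma is its best known inducer outside dendritic cells, B cells and macrophages. LECs are known as cells that can carry class II, both by making it and by taking it up from dendritic cells. Transcripts bear on the first of these routes.

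Class II promoters are known for an X box, bound by RFX, followed by a Y box, bound by NF-Y. The RefSeq promoter table (GRCm38.p6) held windows for 4 of the 7 members, H2-Aa, H2-Eb1, H2-DMa and H2-DMb1. The letters searched were an X core, GCAAC or GTAAC, followed by the Y box ATTGG, with 15 to 45 bases from start to start, in the 250 bases before the gene start. These letters and distances were chosen after the promoters had been seen. They occurred in this order on the strand of the gene in 0.874% of 32851 windows, and on either strand in 1.75%. The X core and Y box do not overlap. The match was found for H2-Aa, H2-Eb1 and H2-DMb1 and not in the windows of H2-DMa, and it was found for H2-Eb2, H2-Oa and H2-Ob but not H2-DMb2. The stretches of H2-Aa and H2-Eb1 are shown since both hold the same core at nearly the same distance, with X core and Y box in capitals. That of H2-Aa is chr17:34287855-34287916 on the minus strand, and that of H2-Eb1 is chr17:34305764-34305824 on the plus strand.
H2-Aa: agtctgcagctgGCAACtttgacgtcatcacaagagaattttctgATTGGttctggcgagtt
H2-Eb1: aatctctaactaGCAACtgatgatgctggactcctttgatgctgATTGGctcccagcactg
Between the boxes lie 28 bases in H2-Aa and 27 in H2-Eb1, and the X core begins 81 and 91 bases before the gene start. The match describes letters in a window, and binding was not measured.

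The cells had the markers of their label. Flt4 and Mmrn1 were detected in 100% of the cells, Prox1 in 97.1%, Lyve1 in 95.9% and Pdpn in 94.8%. Depth ran from 7046 to 10727631 reads a cell, with a median of 148203, and 2006 to 7679 genes were detected. Blood cell genes were uneven. At least 1 of 11 haematopoietic genes analysed had reads in 22.3% of cells, mostly Fcer1g (63 cells) and Lyz2 (38 cells). C1qa was at 0 in every cell, which allows a share of up to 0.457% of cells. Ptprc, the pan-leukocyte phosphatase CD45, had reads in 6 cells (0.915%). The dendritic cell integrin gene Itgax also had 0 reads in every cell.

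The 7 genes were ordered in steps. The median gene of the table was detected in 5.03% of cells, so 4 members lay above it, H2-DMa lay at it, and H2-DMb1 and Ciita lay below it. H2-Ab1, the beta chain of the I-A molecule, and Cd74 each had reads in 28.4% of cells (95% exact interval 24.9 to 32%). H2-Aa, the I-A alpha chain, was detected in 16% (13.3 to 19%). H2-Eb1, the beta chain of the I-E molecule, was detected in 15.2% (12.6 to 18.2%). The H2-DM chains that edit the bound peptide were scarcer. H2-DMa had reads in 33 cells, or 5.03% (3.49 to 6.99%), and H2-DMb1 in 22 cells, or 3.35% (2.11 to 5.03%). Ciita was detected in 8 cells, or 1.22% (0.528 to 2.39%). Between neighbours in this order the intervals failed to overlap at 2 steps, from Cd74 to H2-Aa and from H2-Eb1 to H2-DMa. The intervals cover counting error over cells only. H2-Ea, the partner of H2-Eb1, was not analysed here; C57BL/6 mice are known to lack a working copy.

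The shares fell on thinning to an equal depth, a step that can only remove reads. In 3 groups of cells by depth before thinning, shallowest first, H2-Ab1 was detected in 26%, 24.7% and 34.4%. With every cell thinned to 20000 reads, which put aside 88 shallower cells, H2-Ab1 and Cd74 were each detected in 17.4%, H2-Eb1 in 9.68%, H2-Aa in 9.33%, H2-DMa in 2.46%, H2-DMb1 in 2.29% and Ciita in 0.704%. Many detections rested on very little. Of the cells with Cd74, 50.5% had only 1 or 2 reads of it, and for H2-Ab1 this was 38.2%. A level of at least 1 read per 10000 reads of the cell was used as a second, stricter threshold. It is strict for deep cells, but in the 88 cells under 20000 reads 2 reads are enough to pass it. At that level H2-Ab1 was present in 95 cells, Cd74 in 78, H2-Eb1 in 54, H2-Aa in 53, H2-DMa in 15, H2-DMb1 in 10 and Ciita in 1.

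**Figure D1:**
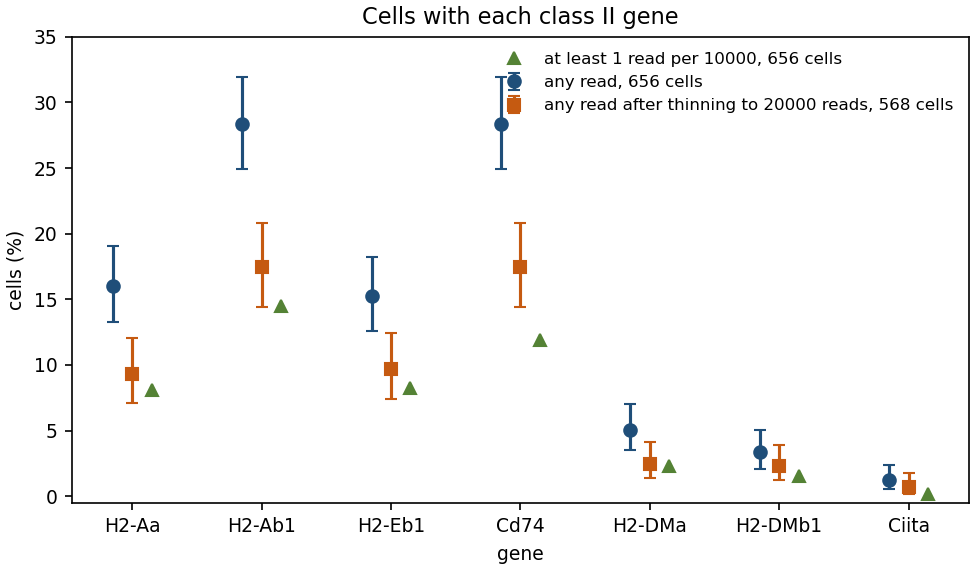
Share of cells (%) in which each of the 7 genes was detected. Circles give any read, squares any read after thinning to 20000 reads, both with 95% exact intervals, and triangles at least 1 read per 10000; H2-Ab1 and Cd74 were highest at 28.4% and Ciita lowest at 1.22%.

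The genes were also compared as levels. The mean level, as the natural log of 1 plus reads per 10000, was 0.28 ± 0.69 for H2-Ab1 (SD over cells). It was 0.25 ± 0.68 for Cd74, 0.13 ± 0.46 for H2-Aa and 0.12 ± 0.41 for H2-Eb1. The SD exceeded the mean for each of these genes, since most cells held no read. The other means were 0.03 for H2-DMa, 0.02 for H2-DMb1 and 0.004 for Ciita. Levels were also divided by exon length, so that genes of different length can be set side by side. The length was the union of all annotated exons of a gene, which can exceed that of a single transcript. Per kilobase of this length, Cd74 led at 0.739 reads per 10000 per kb. H2-Ab1 followed at 0.457, H2-Eb1 at 0.169 and H2-Aa at 0.109, while H2-DMb1 was at 0.0334, H2-DMa at 0.0234 and Ciita at 0.00062. Before the division H2-DMa was above H2-DMb1, at 0.0807 and 0.0562 reads per 10000. The alpha chain of I-A was thus the lower of the 2 I-A chains both in the share of cells and per length.

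Most of the RNA sat in few cells. The 7 levels were summed in each cell, as reads per 10000. The lowest sum was 0, the median 0.0131 and the highest 232.5, and the 10 highest cells held 43.4% of the total over all cells. In the highest cell, on the natural log scale, Cd74 was at 4.96, H2-Ab1 at 3.75, H2-Eb1 at 3.39 and H2-Aa at 3.06. It was also the cell with the most haematopoietic genes, 7 of 11, where no other cell had more than 2. It had 4.28 reads per 10000 of Ptprc, 16.2 of the B cell receptor component Cd79a and 6.33 of the chemokine receptor Ccr7, beside 2.24 of Flt4, 2.27 of Prox1 and 14 of Mmrn1. So this cell carried both leukocyte and LEC genes, and the main counts and ratios are given without it as well. Without it, the 10 highest cells held 39.1% of the total.

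Among the second to the tenth of these cells, none had more than 2 haematopoietic genes. The next highest cell reached a sum of 119.4, with 60.8 reads per 10000 of Cd74, 29.4 of H2-Ab1, 22.8 of H2-Aa and 6.43 of H2-Eb1, and no haematopoietic gene. The third reached 101.3, nearly all chains, with 64.7 of H2-Ab1, 21 of H2-Aa and 8.55 of H2-Eb1 against 2.02 of Cd74, and it had 1.31 of Fcer1g. The fourth reached 99.2, with 53.9 of H2-Ab1 and the highest H2-DMb1 of all cells, 7.63, and it had 2 haematopoietic genes, with Fcer1g at 2.54. The mix of chains, invariant chain and editor therefore differed widely among high cells. Of the 10 highest cells, 5 had at least 1 haematopoietic gene, 4 of them Fcer1g, and 9 had no Ptprc read. Prox1 was found in 9 of them and Flt4 and Mmrn1 in all 10.

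Cells with many members were more frequent than separate detection of the genes would give. To allow for depth, the cells were split into 10 equal groups by their reads, and the number expected was computed in each group as if the genes were detected independently of one another. The excess began at 3 genes. At least 2 of the 7 genes were found in 24.7% of cells (expected 25.2%), and exactly 2 in 14.9% (expected 19.6%). At least 3 of the 7 genes were found in 64 cells, or 9.76% (7.59 to 12.3%), where 36.8 were expected. At least 4 were found in 27 cells (expected 4.74) and at least 5 in 12 cells (expected 0.338). Cells with no member were also in excess: 44.1% of cells had no member (expected 34.1%) while 31.25% had exactly 1 (expected 40.7%). Without the highest cell, 63 cells had at least 3 members. At 1 read per 10000, at least 3 genes were present in 32 cells (expected 5.35) and at least 4 in 20 (expected 0.357).

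**Figure D2:**
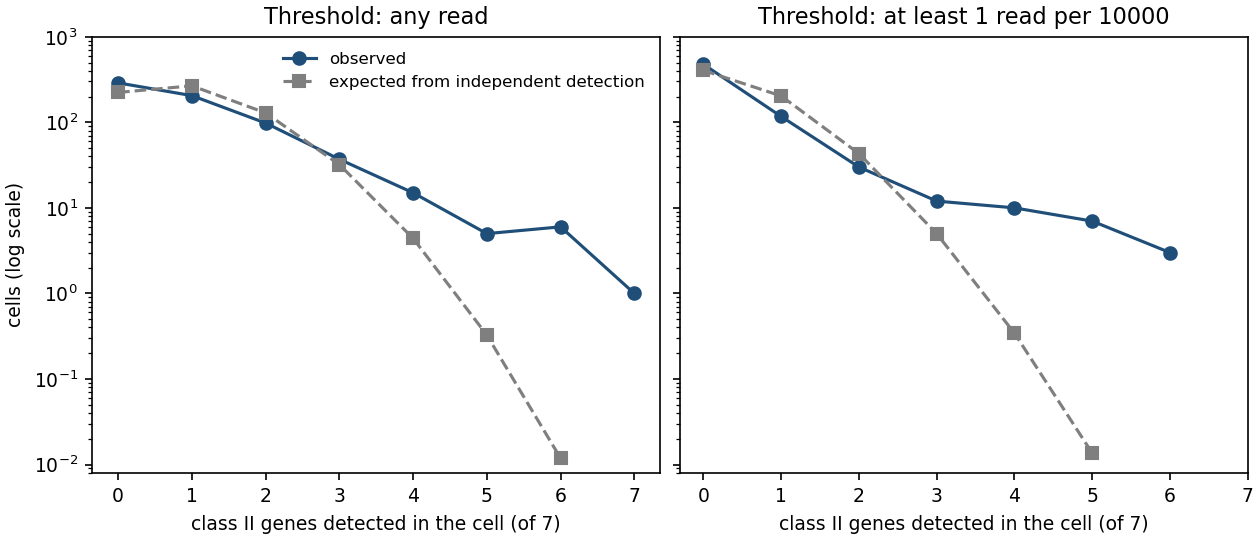
Number of cells (log scale) by how many of the 7 class II genes were detected in them, at any read (left) and at 1 read per 10000 or more (right). Circles are the observed cells and squares the number expected from independent detection within 10 depth groups, with values under 0.01 left out; observed counts exceed the expected from 3 genes upward, with 15 cells against 4.40 at exactly 4 genes on the left.

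The genes came together pair by pair. The ratio of observed to expected cells with both genes had a median of 2.01 over the 21 pairs (range 0.818 to 4.53), was above 1 in 19, and was at least 2 in 11. Over all pairs of genes detected in 20 cells or more and in at most 50% of cells, 1.12% reached a ratio of 2, and the median was 1.05. Of the members, 6 met these limits, all but Ciita, and 8 of their 15 pairs reached 2. Small expected counts make high ratios easier. Among pairs with at least 5 expected cells, 5 of 12 member pairs reached 2 beside 0.0859% of all pairs, with medians of 1.85 and 1.05. Without the highest cell, 8 of the 21 pairs reached 2, and the median was 1.83.

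The partners in the class II complex can be read from single pairs. H2-Aa and H2-Ab1, which form I-A, shared 59 cells where 32.2 were expected, a ratio of 1.83. H2-Ab1 was thus found in 56.2% of the cells with H2-Aa, and H2-Aa in 31.7% of those with H2-Ab1. H2-Ab1 and Cd74 shared 77 cells where 54.4 were expected, 1.42, the lowest ratio among the 6 pairs of H2-Aa, H2-Ab1, H2-Eb1 and Cd74. The highest of these 6 was H2-Aa with H2-Eb1, at 2.01 (33 cells, expected 16.5). The H2-DM chains, H2-DMa and H2-DMb1, shared 7 cells where 1.55 were expected, 4.53, the highest ratio of the 21 pairs. Of the 33 cells with H2-DMa, 24 had H2-Ab1 (expected 10.7).

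The ratios were higher at the stricter threshold, where the expected counts were lower. At 1 read per 10000, the 6 pairs of the main genes had a median ratio of 3.65 (3.0 to 4.25), against 1.76 at any read (1.42 to 2.01). H2-Ab1 and Cd74 then shared 36 cells where 12 were expected, and H2-Aa and H2-Ab1 shared 30 where 8.26 were expected. The shared fraction itself hardly changed, with H2-Ab1 in 56.6% of the cells with H2-Aa and H2-Aa in 31.6% of those with H2-Ab1. After thinning to 20000 reads the median of the 6 was 2.95. All of H2-Aa, H2-Ab1, H2-Eb1 and Cd74 were found together in 22 cells (expected 1.59), and 18 cells had all of them at 1 read per 10000 (expected 0.106).

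**Figure D3:**
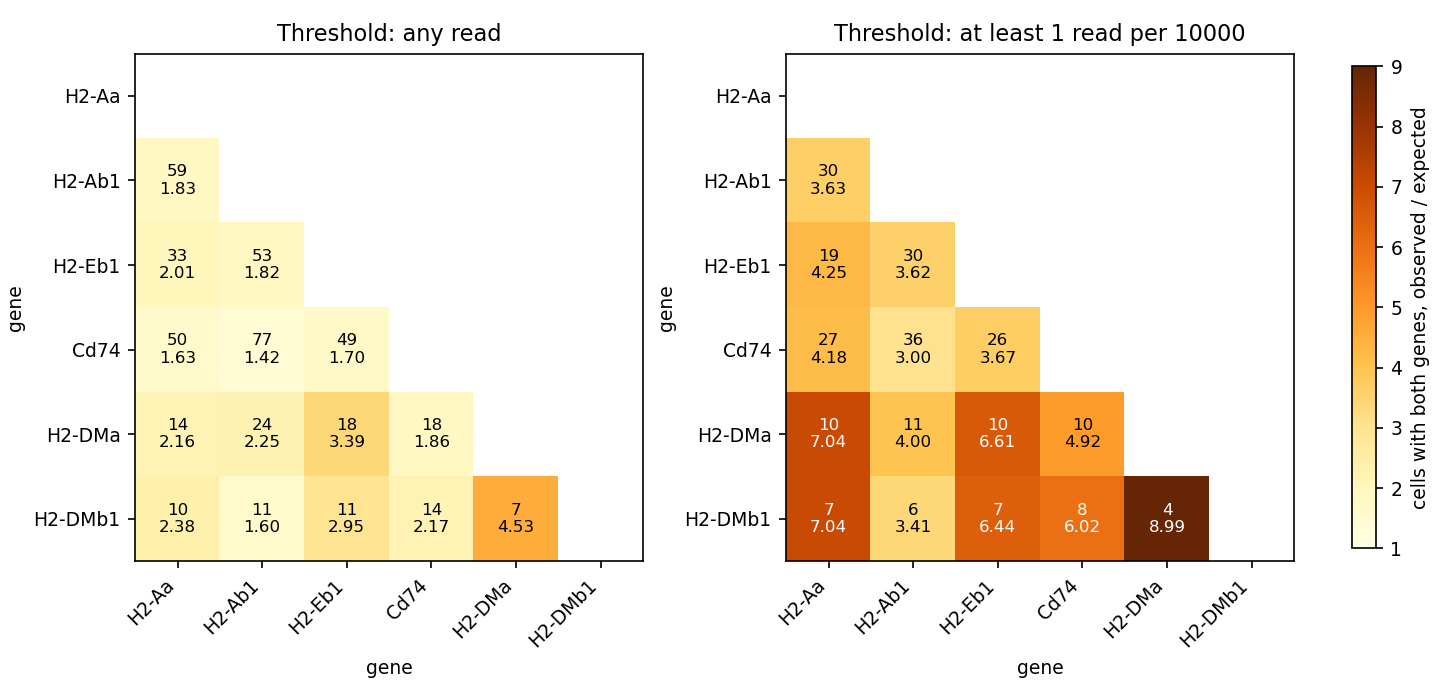
Co-detection of pairs among the 6 genes other than Ciita, at any read (left) and at 1 read per 10000 or more (right). Each square gives the number of cells with both genes and, under it, the ratio of observed to expected, which also sets the colour; every ratio is higher on the right, and H2-DMa with H2-DMb1 is highest in both (4.53 and 8.99).

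Co-detection was far from complete even where a gene was plentiful. Cd74 was at 5 reads per 10000 or more in 35 cells, of which 8 had no read of H2-Aa, H2-Ab1 or H2-Eb1. H2-Ab1 was at that level in 35 cells, of which 11 had no Cd74 read and 11 had no H2-Aa read. Both were at that level in 15 cells (expected 2.40). Over all levels, 81 cells had Cd74 and none of the chain genes H2-Aa, H2-Ab1 and H2-Eb1. A read count of 0 does not show that a transcript was absent from a cell.

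Ciita was read in few cells, so it could share few with the genes it controls. Of its 8 cells, 3 (37.5%) had any other member, where 55.9% of all cells had at least 1 of the 7 genes. Ciita itself was found in only 1.22% of all cells. Of the 64 cells with at least 3 members, 62 (96.9%) had no Ciita read. The 2 exceptions were the highest cell, with 0.224 reads of Ciita per 10000, and the third highest, with 0.386. The remaining cell with another member had 1 read of Ciita and 2 of H2-Eb1. The other 5 Ciita cells had no read of any member, although their depth ran up to 5322666 reads. The highest Ciita level, 1.48 reads per 10000, was in a cell with 0 reads of the other 6 genes. With H2-Ab1 the ratio of observed to expected cells was 0.818 (2 cells, expected 2.44), and with Cd74 it was 0.856. With the other members it ran from 1.28 to 4.21, on 1 to 3 cells each, among which was the highest cell. Exons of Ciita overlap those of Dexi on the opposite strand, and Dexi had reads in 3 of the 8 Ciita cells (expected 1.24), so the origin of single Ciita reads is uncertain. The part of this overlap in the Ciita values was not tested.

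**Figure D4:**
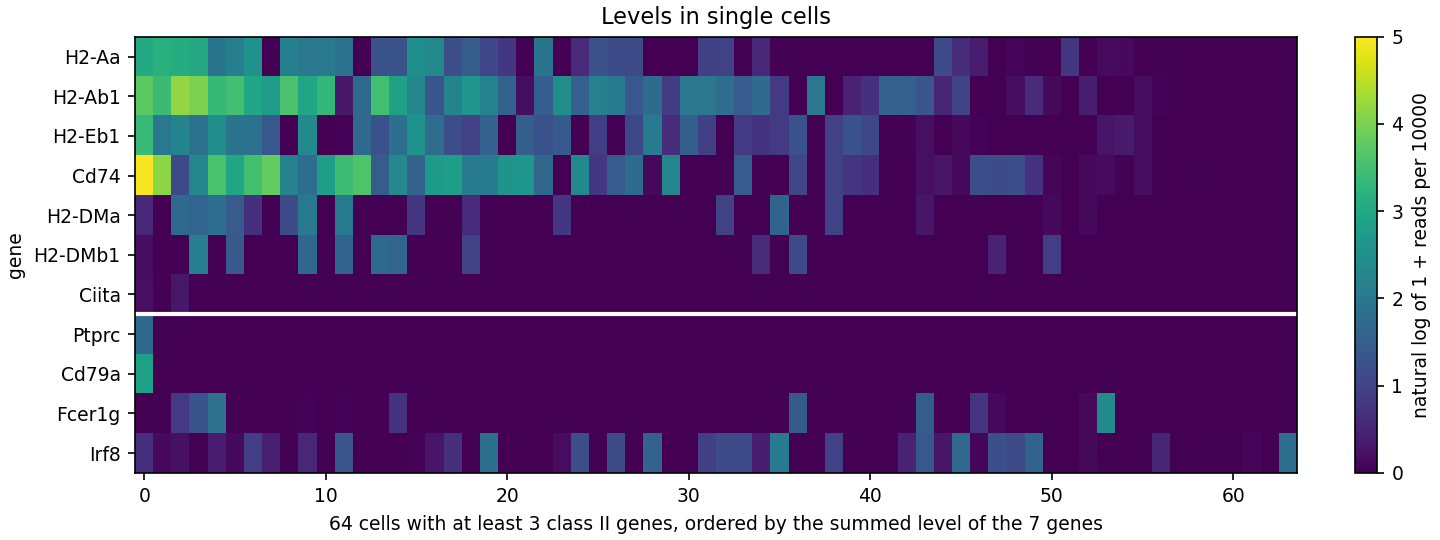
Levels (natural log of 1 plus reads per 10000) in the 64 cells with at least 3 class II genes, 1 column a cell, ordered by the summed level of the 7 genes. The 7 genes are above the white line and Ptprc, Cd79a, Fcer1g and Irf8 below it; Ptprc had reads in the first column and in no other, and Ciita had reads in 2 columns.

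The cells with at least 3 members carried the LEC markers. All 64 had Flt4, Mmrn1 and Cdh5, and 63 had Prox1. The median level of Lyve1, on the natural log scale, was 1.49 in these cells and 2.14 in the other cells, and that of Prox1 was 1.61 and 1.5. Of the 64, 42 (65.6%) had no read of any of the 11 haematopoietic genes, against 77.7% of all cells, and 1 had Ptprc. Their median depth was 195722 reads, and that of the others 135526 reads; the median numbers of detected genes were 4616 and 3910.

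Other genes were set against cells with at least 2 of H2-Aa, H2-Ab1, H2-Eb1 and Cd74, which made up 22.7% of all and are called class II cells here. The name stands for detection only. At least 2 of all 7 genes were no more frequent than independent detection would give, at 24.7% of cells (expected 25.2%). Whether the class II cells exceed such an expected number was not tested. Over 10378 other genes detected in 20 cells or more and at most 50% of cells, 2.19% had a ratio to these cells of at least 1.5, with a median of 1.04. None of the 7 subunits of the complexes that sit on class II promoters beside Ciita reached it. Rfx5, Rfxap and Rfxank form the RFX complex, and Nfya, Nfyb and Nfyc form NF-Y. With Creb1, the ratios of these genes ran from 0.951 for Nfya to 1.10 for Rfxap, and their median was 1.04. Rfx5 was found in 36 cells (5.49%) and Nfya in 39.3%, so the parts of this machinery were each detected in more cells than Ciita.

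Of 10 genes of the interferon gamma axis analysed, some were found in most cells and others in few. The receptor chain Ifngr1 was detected in 71.8% of cells and the kinase Jak1 in 90.5%. The transcription factor Irf1, an early target, had a ratio to the class II cells of 0.972, in a gene detected in 87.7% of cells. Gbp2, a GTPase induced by interferon gamma, had a ratio of 1.30. Socs1, the feedback inhibitor, was detected in 32 cells, Cxcl10 in 16 and Ido1 in 7. The last pair had ratios of 1.65 (7 cells, expected 4.25) and 1.85 (3 cells, expected 1.62). Of the 10 genes, 3 met the limits of 20 cells to 50% of cells, and 0 of these reached 1.5.

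The enzymes that cut antigen for class II split sharply. The proteases Ctsb, Ctsd, Ctsl and Lgmn had reads in 92.5 to 99.4% of the cells. Ctss, the protease that trims Cd74 in professional antigen-presenting cells, was detected in 6 cells, and Ifi30, the lysosomal thiol reductase, in 18. The ubiquitin ligase gene March8 was detected in 28% of cells, and March1, its relative known from dendritic and B cells, in 0 cells, which allows up to 0.457%. H2-Oa and H2-Ob, whose product restrains H2-DM, were each detected in 3 cells. H2-Eb2, a relative of H2-Eb1, had reads in 4 cells. H2-DMb2, a close paralogue of H2-DMb1, had reads in 3 cells, all 3 among the class II cells. H2-DMb2 and H2-DMb1 can share reads, and how reads matching several genes were treated is not stated. Exons of H2-DMa overlap those of Brd2 on the other strand, and all 33 cells with H2-DMa had Brd2, which was detected in 91.5% of cells.

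Among genes of other signals to T cells, Cd40 and Cd274 had ratios near that of all genes. Cd40 was detected in 22.1% of cells and the inhibitory ligand gene Cd274, which encodes PD-L1, in 18.4%. Their ratios to the class II cells were 1.13 and 1.07. Icosl was found in 11 cells, of which 1 was a class II cell (expected 2.69), a ratio of 0.371. Cd80, Cd86 and Pdcd1lg2 were not analysed here. The class I genes B2m and H2-D1 were found in every cell and H2-K1 in 99.8%, so MHC class I was near universal where class II was sparse. The peptide transporter gene Tap1 and the class I activator Nlrc5 had ratios to the class II cells of 1.07 and 1.09, and the immunoproteasome gene Psmb8 of 1.13. For genes found in nearly every cell this ratio is fixed near 1. By level, the partial Spearman correlation with the summed class II level, given depth and detected genes, was 0.18 for H2-K1, 0.15 for H2-D1, 0.14 for B2m and 0.11 for Psmb8, weak values over cells of 1 pool that are given as a description.

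Among blood cell genes, Fcer1g, the signalling chain of Fc receptors, was found in 26 of the class II cells where 14.7 were expected, a ratio of 1.76. It was detected in 63 cells in all, or 9.6%. The other haematopoietic genes with reads ran from 0.695 for Ptprc (1 cell, expected 1.44) to 2.32 for Laptm5 (5 cells, expected 2.15). Lyz2, in 38 cells, had a ratio of 1.19 (11 cells, expected 9.22). The transcription factor gene Irf8 was detected in 45.3% of cells, and 87 of these were class II cells (expected 70.2), and it had reads in 8 of the 10 highest cells. Irf8 and Fcer1g thus had reads in many cells without Ptprc. The B cell genes Cd79a and Cd79b were detected in 14 and 4 cells, with ratios of 0.537 (2 cells, expected 3.73) and 1.71 (2 cells, expected 1.17). The dendritic cell genes Batf3 and Ccr7 were detected in 10 and 2, with ratios of 1.44 (4 cells, expected 2.78) and 3.67 (2 cells, expected 0.545). The highest cell, itself a class II cell, had reads of Ptprc, Laptm5, Cd79a, Cd79b and Ccr7, and these ratios are not given without it. Of the class II cells, 64.4% had none of the 11 haematopoietic genes, against 77.7% of all cells. The part of leukocyte RNA in the class II values was not tested.

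Class II was found in all LEC clusters. By any read before thinning, cluster 3 was lowest for H2-Aa, H2-Eb1, Cd74 and H2-DMb1 but not for H2-Ab1, H2-DMa or Ciita. The cells fell into 5 clusters, made without the class II genes and called here by number and leading genes. Unthinned, H2-Ab1 was even, from 25% of cells in cluster 4 (led by Ptn and Stc1) to 30.1% in cluster 1 (Gm525, Gpx3 and Stab2). H2-Eb1 was detected in 5 cells of cluster 3 (Tppp3, Fbln7 and Fndc1), or 4.76% (1.56 to 10.8%), and in 16.7 to 18.5% of the other 4 clusters. This interval overlapped that of cluster 5 (9.7 to 28.2%) and lay below those of clusters 1, 2 and 4. Cd74 was detected in 16.2% of cluster 3 (9.72 to 24.7%) and in 26.7 to 34% of the others, with an interval below that of cluster 1 (27.6 to 40.8%) and overlapping the remaining ones. At least 2 of the 4 main genes were found in 13.3% of cluster 3 and in up to 28.4%, in cluster 5 (Fxyd2, Gdf15 and Gdf10).

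The low values of cluster 3 held at equal depth. After thinning to 20000 reads, Cd74 was detected in 4 of its 87 cells, or 4.6% (1.27 to 11.4%), and in 13.8 to 21.7% of the others. H2-Eb1 was then detected in 1 cell of cluster 3 (1.15%) and in 10.1 to 12.8% of the others. At least 3 members were found in 0 of its 87 cells, which allows up to 3.45%, and in 4.62% to 9.49% elsewhere. Without thinning, the mean level of H2-Ab1 was 0.13 in cluster 3 and 0.21 to 0.34 elsewhere (natural log scale). Fndc1, which leads cluster 3, had ratios over all cells from 0.794 with H2-DMa to 1.06 with H2-Ab1, and of 0.888 with H2-Eb1. Over Ptx3, Stab2, Ptn, Foxp2, Cldn11, Gja4 and Lyve1, other genes by which LEC types are told apart, the ratio with H2-Ab1 ran from 0.968 to 1.03 and that with H2-Eb1 from 0.712 for Ptx3 to 1.12 for Foxp2. Of the 8 Ciita cells, 6 were in cluster 2 (Apoe, Clu and Comp). Clusters of 1 pool are not replicates, and these differences have no test.

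**Figure D5:**
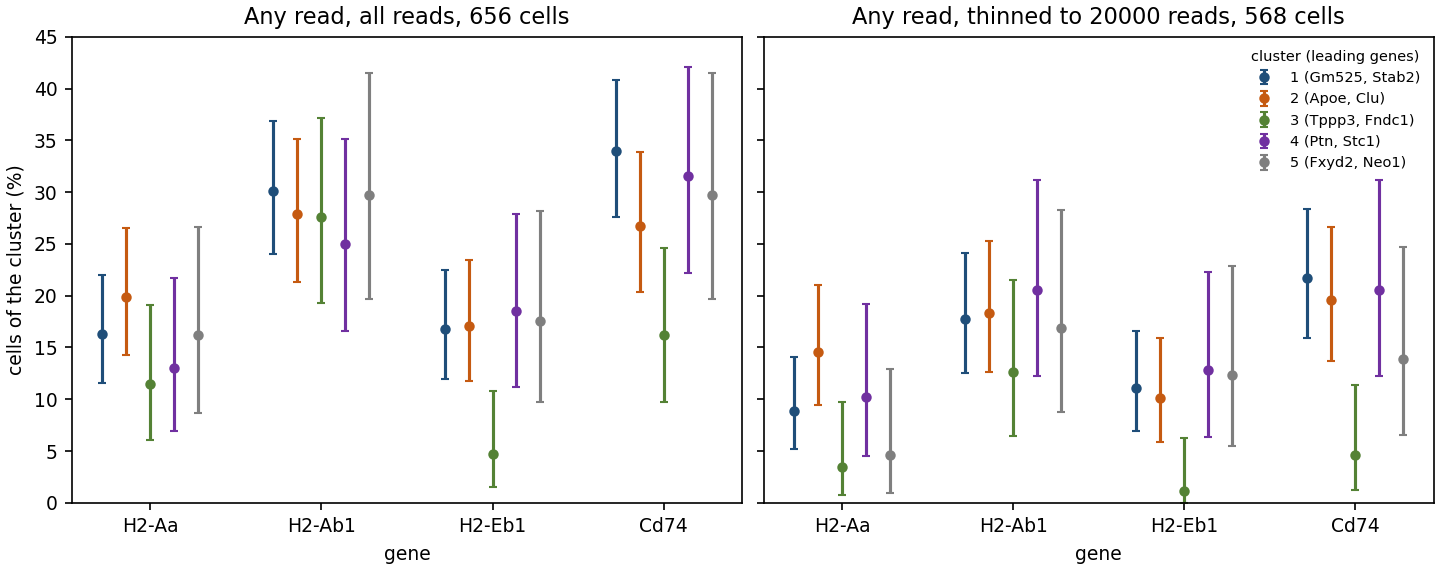
Share of cells (%) with H2-Aa, H2-Ab1, H2-Eb1 and Cd74 in each of 5 clusters, with 95% exact intervals, from all reads (left) and after thinning to 20000 reads (right). Cluster 3, in green, is lowest for H2-Eb1 and Cd74 in both panels (4.76% and 16.2% on the left), while H2-Ab1 overlaps in all clusters.

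Cell numbers gave a view of possible plates, since cells had been sorted into 96-well plates, though no label ties a number to a plate. Over 12 runs of 96 numbers, H2-Ab1 was detected in 5.56 to 60% of cells (median 29.4%) and Cd74 in 16.9 to 45%. Both ends for H2-Ab1 came from small and deep runs: 1 of 18 cells in the eighth run and 12 of 20 in the ninth, with median depths of 2450280 and 2042790 reads. At least 3 members were found in 11 of the 12 runs. By depth, H2-Aa was detected in 13.2%, 11.9% and 22.9% of the shallowest, middle and deepest of 3 groups of nearly equal size, and at least 1 member in 51.1%, 50.2% and 66.5%.

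The members lie on 3 chromosomes. In the mm10 assembly (GRCm38), 5 lie on chromosome 17 in the MHC: H2-DMa at chr17:34119541-34139101, H2-DMb1 at chr17:34153072-34160230 and H2-Ab1 at chr17:34257689-34269419, all on the plus strand, H2-Aa at chr17:34282744-34287823 on the minus strand, and H2-Eb1 at chr17:34305867-34316674 on the plus strand. Cd74 lies at chr18:60803848-60812652 and Ciita at chr16:10480059-10528418. All are protein-coding. Co-detection of Cd74 with the H2 genes was thus between genes on different chromosomes, and it was found at ratios of 1.42 to 2.17 with the 5 of them.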

How the data were processed

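Reads of sorted single cells (Smart-seq3, 1 pool) had been aligned by the authors to mm10 with STAR and counted with featureCounts; strand and multi-mapping settings are not stated. Cells under 2000 genes or over 10% mitochondrial reads had been discarded. Each value, as deposited, was read as a natural log of reads per 10000 with 1 added, since exponentials less 1 sum to 10000 in every cell, although the methods of the study name log2. Values of 656 cells, out of 1152 with labels, were analysed; the other 496 were not analysed here. Reads were recovered by setting a cell's smallest positive value to 1 read, which made 100% of values whole to within 0.01 reads. Of these, 79.9% were even numbers, so 1 fragment may often count as 2 reads, and intervals and floors cover counting error only.

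Members and lists were chosen with earlier results of these data known. Detection was any read. Intervals of shares are 95% Clopper-Pearson (scipy 1.17.1), and beside 0 cells stands the share that 3 cells would be. Cells with at least 20000 reads (568) were thinned to that number with a fixed seed. Expected co-detection was computed in closed form within 10 equal depth groups, and no chance test was run. Named genes were the members and lists of class II partners, regulators, interferon gamma axis, peptide processing, co-stimulation, class I, blood cell and LEC markers, with the 10 genes most like the class II level. Clusters came from Seurat 5.3.0 (R 4.3.3), with 2000 variable genes without class II, 15 principal components, and the lowest resolution in steps of 0.1 giving 5 clusters (0.7); the authors used Seurat 4.1.0. No doublet caller was run. Functions were tested on simulated data. Gene positions and exon lengths came from GENCODE M21 (22258 of 23168 symbols matched).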

Additional observations from a re-analysis of the deposited data

How the results depend on the processing

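The threshold for detection moved the shares and ratios. The median share over the 7 genes, 15.2%, was 9.33% after thinning to 20000 reads, 6.71% with at least 5 reads and 8.08% at 1 read per 10000. The share of cells with at least 3 members, 9.76%, was 5.99%, 4.73% and 4.88% under the same settings, and the median co-detection ratio, 2.01, was 3.40, 4.76 and 3.83. The number of pairs with a ratio of at least 2, 11 of 21, was 18 after thinning, 21 with at least 5 reads and 15 of 20 defined pairs at 1 read per 10000. These thresholds leave fewer detections by construction. No depth groups, 5 or 20 of them, or 10 by detected genes gave median ratios of 1.93 to 2.06 and 10 or 11 pairs. Without 15 cells with Ptprc or 2 other haematopoietic genes, the share with at least 3 members was 9.67%, the median ratio 1.85 and the pairs 8. Leaving out the lowest 25% of cells by detected genes, the 4 cells that had reads of both Xist and Y-linked genes, or single reads, gave median ratios of 2.01, 2.0 and 2.05. The range across clusters of cells with at least 2 of the 4 main genes, 15 percentage points, was 26.3 at resolution 1.5 (10 clusters); the cause was not tested. It was 10.1 to 17.9 points under the other alternatives, and under all 5 the lowest cluster was the one highest in Fndc1. Single member shares stayed inside their interval in 38 of 56 alternatives. As the natural log of 1 plus the linear mean, the level of Cd74 was 0.81 in place of 0.25 and that of H2-Ab1 0.78 in place of 0.28, so their order turned. The highest cell, which carried leukocyte genes, held 17.3% of the Cd74 reads per 10000 summed over all cells. The linear means are not given without it, so the turn may rest on that cell. The settings at 1 read per 10000 and without the highest cell were added after seeing the data. A split by sex could not be made, as 0 cells had a Y-linked gene without Xist. No paired analysis was possible because the group was a single pool and no result came from a test. Ciita rests on 8 cells, with an interval of 0.528 to 2.39%.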

Other observations

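Outside the gene lists fixed for the report, the genes whose level was most like the summed class II level over the cells were only loosely so. The partial Spearman correlation given depth and detected genes ran from -0.16 to 0.19 over 9662 genes. Dcn, the proteoglycan decorin, was highest at 0.19, with H2-K1 of the fixed lists at 0.18, and was found in 70 of the class II cells where 45.3 were expected. Next were Serpinh1 (0.15), the collagen chaperone, H2-Q6 (0.15), a class I gene, Ifi47 (0.15), an interferon-induced GTPase, and Plxnd1 (0.15). Egfl7, C1ra, Stk40, Psmb10 and Il18bp completed the 10, at 0.13 to 0.14. Ifi47 was found in 46 of the class II cells where 34.5 were expected. The points share the pool, and their depth differs widely. Correlations of this size in sparse counts are a description and no finding.

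Members had reads in cells of either Xist status: of the 92.2% of cells with Xist and no Y-linked gene, 63 cells had at least 3 members, and of 47 cells with neither, 1 had.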
